A study of Equus caballus with 28 samples.

Results

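Small RNA reads of 8 mature miRNAs of the miRNA families miR-10, miR-99/100 and miR-125 were followed through the uterus, the uterine fluid (UF), the embryo and the yolk sac (YS) fluid of the mare. The members were all entries for known horse miRNAs that carry the name of one of these families (a or b copy, either arm): eca-miR-10a, eca-miR-10b, eca-miR-99a, eca-miR-99b, eca-miR-100, eca-miR-125a-5p, eca-miR-125a-3p and eca-miR-125b-5p, written without the prefix from here on. They are 8 of the 844 miRNAs counted, of which 690 were known and 154 predicted. miR-125a-3p is the arm opposite miR-125a-5p in the same hairpin.

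MicroRNAs are short RNAs that bind messenger RNAs through a seed near their 5′ end and lower their translation or stability. These families are evolutionarily old: miR-10a and miR-10b lie inside HOX gene clusters, which pattern the body axis, and the genes of miR-99/100, let-7 and miR-125 lie side by side and can be read from a common primary transcript. The let-7 family is low in pluripotent cells and rises with differentiation, miR-99/100 is known for targeting the mTOR pathway, and miR-125, the relative of the worm lin-4, for targeting LIN28, which blocks let-7 maturation. In the RefSeq annotation of the horse (from a newer assembly than that of the counts), the loci of miR-99b, let-7e and miR-125a neighboured each other, as did those of miR-99a, let-7c and a miR-125b copy, and those of miR-100, let-7a and another miR-125b copy. The miR-10a locus lay among HOXB1 to HOXB9 and the miR-10b locus among HOXD genes. Both miR-125b copies give the same mature entry, miR-125b-5p, so its reads cannot be assigned to either cluster. Apart from miR-125a-3p, which is an opposite arm, the mature RNAs within each family are similar in sequence. How reads that match more than 1 of them were counted is not given in the sources used here.

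The samples came from 5 Warmblood mares on day 13 after ovulation, with each mare studied in a pregnant cycle (inseminated with semen of the same stallion) and in an unbred cyclic cycle, with ovulation induced by hCG in both. The groups were cyclic uterus (4 endometrial biopsies), pregnant uterus (5), cyclic UF (4), pregnant UF (5), pregnant embryo (5, embryonic tissue after removal of the capsule) and pregnant yolk sac (5, the fluid aspirated from the same embryos). UF was collected with an intra-uterine tampon before the uterus was flushed for the embryo. For mare 5 only the pregnant cycle was analysed. Fluids and tissues went through different RNA extraction kits, so fluid and kit cannot be told apart.

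Between 61836 and 590593 reads were counted in a uterine library, between 62087 and 226308 in a UF library, between 28204 and 44768 in an embryo library and between 4352 and 14531 in a YS library. Levels are given as CPM, the reads of a miRNA scaled to the same total of miRNA reads in each library, and a floor of 3 reads corresponded to between 5.08 and 10.7 CPM in pregnant uterus, between 67.0 and 106 CPM in embryo and between 206 and 689 CPM in YS fluid. The YS library of mare 4 held the fewest reads, 4352, where 1 read is 229.8 CPM. The smallest cyclic libraries, cyclic uterus 1 and cyclic UF 3, held 61836 and 62087 reads. Among markers of the cells that a sample could hold, the early embryonic miR-302, miR-367, miR-371 and miR-372 entries summed to between 12020 and 65295 CPM in embryo and between 34891 and 264130 CPM in YS fluid, with reads for 8 of 8 entries in both groups, and to at most 9.97 CPM in uterus and 32.2 CPM in UF. RNA per cell and the number of cells of a type cannot be told apart in such bulk samples.

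The 8 members together took a mean of 9.17% ± 3.98 of the reads in cyclic uterus and 7.11% ± 2.51 in pregnant uterus (SD over 4 and 5 libraries). The share was 4.03% ± 0.36 in cyclic and 4.30% ± 2.61 in pregnant UF, and 1.53% ± 0.63 in embryo and 1.31% ± 1.02 in YS fluid. miR-10a and miR-10b made up nearly all of it, with 8.84% of the reads in cyclic uterus and 6.86% in pregnant uterus, against 0.0786% and 0.0749% for miR-99a, miR-99b and miR-100 together and 0.26% and 0.175% for the 3 entries of the miR-125 family.

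**Figure D1:**
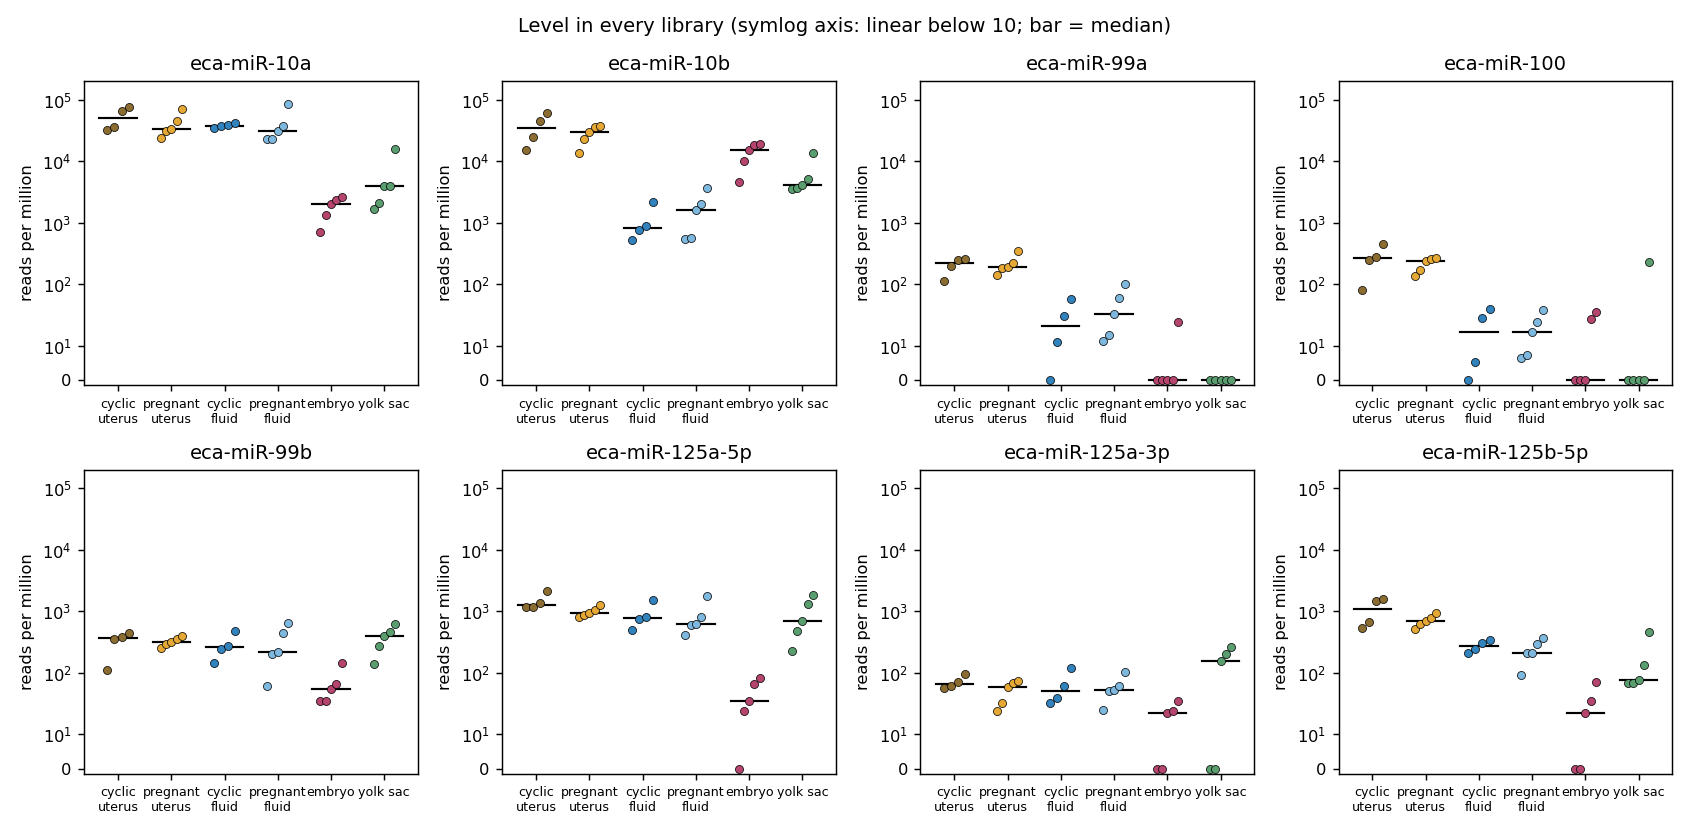
Level of each of the 8 members in every library, in CPM on an axis that is logarithmic above 10 and linear below it, for cyclic uterus, pregnant uterus, cyclic UF, pregnant UF, embryo and yolk sac fluid. Points are libraries and bars are medians. The uterine and UF values of miR-10a overlapped, while miR-10b was between 518 and 3650 in UF and at least 13315 in every uterine library.

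miR-10a was the most abundant member in uterus and UF. Its levels were 31600, 36200, 64408 and 74623 CPM in the cyclic uterus of mares 1 to 4, and 24025, 71027, 44836, 32971 and 31391 CPM in the pregnant uterus of mares 1 to 5. In UF they were 41550, 36733, 38060 and 34114 CPM in the cyclic and 84403, 30881, 22740, 23137 and 37791 CPM in the pregnant cycles. The uterine and UF values overlapped, with pregnant UF of mare 1 the highest of all. The embryos were at 1312, 692, 2348, 2044 and 2657 CPM and the YS fluids at 3955, 1660, 2066, 15855 and 3923 CPM. Every embryo and YS value lay below every uterine and UF value, and the embryo and YS values overlapped.

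miR-10b, which differs from miR-10a by a single base, had another order. It was at 15282, 24853, 61610 and 44826 CPM in cyclic uterus and at 22830, 36269, 29716, 13315 and 36867 CPM in pregnant uterus. In UF it was at 757, 2130, 870 and 518 CPM in the cyclic cycles and at 534, 2034, 556, 1579 and 3650 CPM in the pregnant cycles, all below the lowest uterine value. The embryos held 4503, 15011, 18949, 18220 and 9999 CPM and the YS fluids 5142, 3597, 4133, 13787 and 3510 CPM. The embryo values overlapped those of pregnant uterus and lay above those of UF in every library. The order of the mean levels was cyclic uterus, pregnant uterus, embryo, YS fluid, pregnant UF and cyclic UF, and each neighbour in that order overlapped the next.

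The ratio of the paralogs within a library does not depend on how libraries are scaled. miR-10b made up 32.6%, 40.7%, 48.9% and 37.5% of the miR-10 reads in the 4 cyclic uterine libraries and between 28.8% and 54.0% in the pregnant ones. In UF the share was 1.79%, 5.48%, 2.23% and 1.496% in the cyclic libraries and 0.629%, 6.18%, 2.39%, 6.39% and 8.81% in the pregnant ones. The embryos were at 77.4%, 95.6%, 89.0%, 89.9% and 79.0%, and the YS fluids at 56.5%, 68.4%, 66.7%, 46.5% and 47.2%. In UF miR-10a outnumbered miR-10b in 9 of 9 libraries and in embryo miR-10b outnumbered miR-10a in 5 of 5. Over the pooled reads the 95% Wilson intervals of the share were 40.04% to 40.57% in pregnant uterus, 3.16% to 3.61% in pregnant UF, 87.0% to 89.4% in embryo and 50.7% to 59.8% in YS fluid; they cover counting error only.

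On the log2 scale the miR-10b to miR-10a ratio was lower by 4.22 in pregnant UF than in pregnant uterus and higher by 3.39 in embryo than in pregnant uterus (with 0.5 reads added to each count). It was higher in embryo than in pregnant UF by 7.61, higher in YS fluid than in pregnant UF by 5.18 and higher in embryo than in YS fluid by 2.43. None of these 5 pairs of groups overlapped, and each gave p = 0.00794 in a two-sided exact permutation test over libraries, the smallest p that 5 against 5 allows, with an adjusted p of 0.039 over the 54 ratio tests made. In the cyclic cycles the ratio was lower by 4.74 in UF than in uterus, again without overlap (exact permutation p = 0.0286, the smallest for 4 against 4, adjusted p = 0.119). Between YS fluid and pregnant uterus the values overlapped, with a difference of 0.96 (exact permutation p = 0.0476, adjusted p = 0.171). Several of these comparisons share the pregnant uterine or pregnant UF libraries, so they are not independent of each other. The groups compared also come from the same mares, a pairing that the permutation tests leave out. In the exact sign-flip tests over mares, which use it, 5 pairs cannot go below p = 0.0625 and 4 pairs below 0.125.

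**Figure D2:**
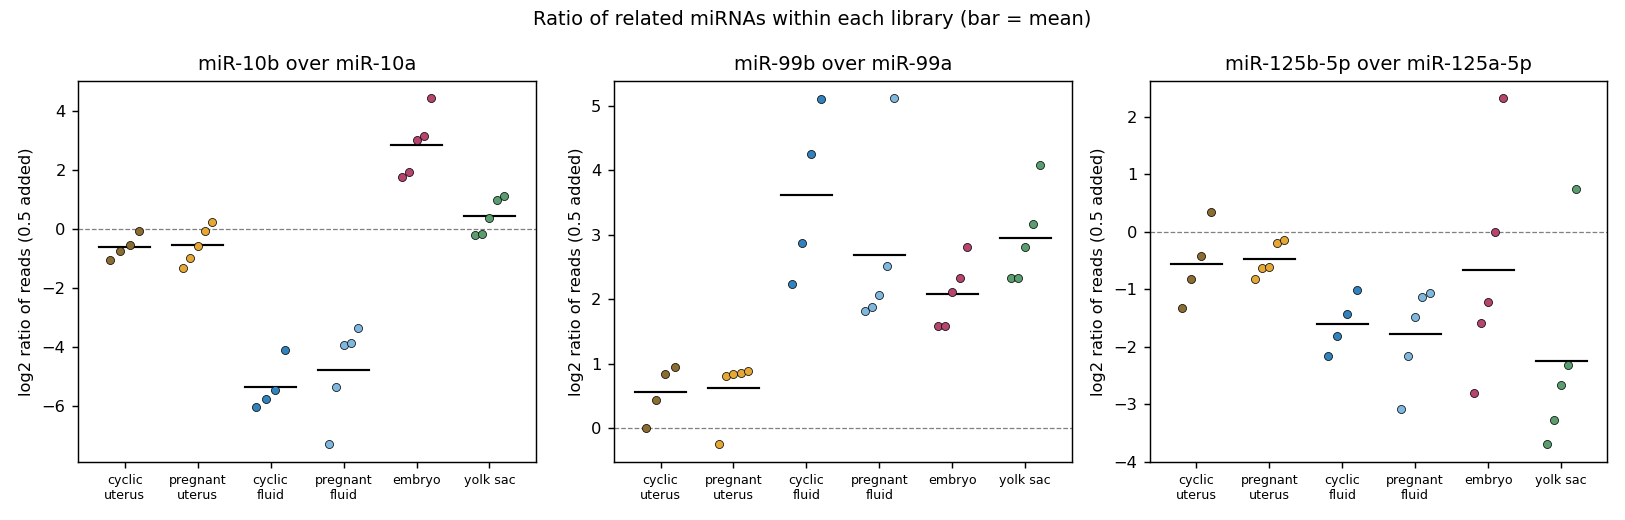
Log2 ratio of the reads of related miRNAs within each library (0.5 added to each count), by group, for miR-10b over miR-10a, miR-99b over miR-99a and miR-125b-5p over miR-125a-5p. In embryo and yolk sac fluid the points of the other 2 panels rest on few or 0 reads and depend on the 0.5 added. Points are libraries and bars are means, and the first panel shows means of -0.60 and -0.54 in uterus, -5.34 and -4.76 in UF, 2.85 in embryo and 0.42 in yolk sac fluid.

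miR-99a and miR-100, the near-identical members of 2 different clusters, rested on few reads outside the uterus, and on 7 and 5 reads in cyclic uterus 1. miR-99a was at 113, 196, 258 and 244 CPM in cyclic uterus and at 139.5, 180.5, 188, 221 and 347 CPM in pregnant uterus. It was at 11.5, 57.4, 0 and 30.8 CPM in cyclic UF and at 14.8, 58.6, 32.7, 12.1 and 101.04 CPM in pregnant UF. Every uterine value lay above every UF value. A single read in 1 of 5 embryo libraries and none in the 5 YS libraries came from miR-99a. The YS group held 53989 reads in all, so that a pooled level of up to 55.6 CPM is allowed by a count of 0.

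miR-100 followed miR-99a. It was at 80.9, 276, 441 and 251 CPM in cyclic uterus and at 137, 169, 266, 236 and 253 CPM in pregnant uterus. In UF it was at 28.7, 39.8, 0 and 5.13 CPM in the cyclic and at 7.42, 16.7, 6.54, 24.1 and 37.9 CPM in the pregnant cycles. The uterine and UF values did not overlap, and no pregnant UF library held more than 3 reads of it. The embryos held 2 reads of it in all and the YS fluids 1 read, in the small library of mare 4.

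miR-99b differed from its relatives. It was at 113, 382, 350 and 438 CPM in cyclic uterus and at 250.0, 317, 349, 403 and 292 CPM in pregnant uterus. UF held 488, 278, 144.96 and 241 CPM in the cyclic and 638, 218, 203, 60.3 and 442 CPM in the pregnant cycles, overlapping the uterus. The embryos were at 35.5, 67.0, 55.2, 34.6 and 144.91 CPM, from 1 to 6 reads each, and the YS fluids at 396, 138, 612, 459.6 and 275 CPM, from 2 to 8 reads each. Of the pooled reads of miR-99a, miR-99b and miR-100, miR-99b took 40.4% in cyclic uterus and 43.3% in pregnant uterus, and 85.0% and 85.1% in cyclic and pregnant UF. In embryo its share was 81.2%, of only 16 reads (95% Wilson interval 57.0% to 93.4%), and in YS fluid 95.0% of 20 reads (76.4% to 99.1%). The log2 ratio of miR-99b to miR-99a was higher by 2.05 in pregnant UF than in pregnant uterus, without overlap (exact permutation p = 0.00794, adjusted p = 0.039). With 5 reads added in place of 0.5 the difference was 1.26, the groups overlapped and it did not pass the adjusted threshold (exact permutation p = 0.0397, adjusted p = 0.134). The ratio was also tested for embryo and YS fluid, where the added reads stand in for miR-99a. These tests are among the 54 over which p was adjusted. Against pregnant uterus it was higher by 1.45 in embryo and by 2.31 in YS fluid (exact permutation p = 0.00794, adjusted p = 0.039 for both). With 5 reads added the differences were -0.08 and 0.18, with overlap, so no conclusion is drawn from them. The other comparisons of this ratio with embryo or YS fluid overlapped. In cyclic UF the ratio was higher by 3.05 than in cyclic uterus, without overlap (exact permutation p = 0.0286, adjusted p = 0.119).

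miR-125a-5p and miR-125b-5p, which share a seed, also parted in UF. miR-125b-5p was at 1488, 1601, 665 and 535 CPM in cyclic uterus and at 927, 701, 792, 518 and 618 CPM in pregnant uterus. UF held 339, 247, 209 and 303 CPM of it in the cyclic and 208, 209, 91.6, 289 and 366 CPM in the pregnant cycles, all below the uterine values. The embryos held 4 reads of it in all and the YS fluids 6.

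miR-125a-5p was at 1164, 2136, 1181 and 1343 CPM in cyclic uterus and at 1058, 1246, 877, 803 and 948 CPM in pregnant uterus. In UF it was at 1532, 499, 757 and 821 CPM in the cyclic and at 1781, 594, 419, 615 and 808 CPM in the pregnant cycles. Uterus and UF overlapped, with mare 1 the highest in both UF groups. The embryos were at 0, 67.0, 82.9, 34.6 and 24.2 CPM, from at most 3 reads each. The YS fluids were at 1846, 484, 689, 229.8 and 1308 CPM, from 1 to 19 reads each, and the 4 values above 229.8 CPM lay within the range of uterus and UF. miR-125b-5p made up 38.8% and 42.8% of the pooled 5p reads of the family in cyclic and pregnant uterus and 24.2% and 19.7% in cyclic and pregnant UF. The log2 ratio of miR-125b-5p to miR-125a-5p was lower by 1.301 in pregnant UF than in pregnant uterus, without overlap (exact permutation p = 0.00794, adjusted p = 0.039), and lower by 1.05 in cyclic UF than in cyclic uterus, with overlap (exact permutation p = 0.0571, adjusted p = 0.182).

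The arm miR-125a-3p was far below the 5p arm in uterus and UF. It was between 56.5 and 97.0 CPM in cyclic uterus, between 24.3 and 72.8 CPM in pregnant uterus, between 32.2 and 121 CPM in cyclic UF and between 25.1 and 104 CPM in pregnant UF. The 4 groups overlapped. It took 4.14%, 5.26%, 6.97% and 6.49% of the pooled miR-125a reads in cyclic uterus, pregnant uterus, cyclic UF and pregnant UF, and the embryos held 3 reads of it and the YS fluids 7.

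The effect of pregnancy on the members was measured between cycles of the same mares. In the uterus 0 of 8 members were called with edgeR's quasi-likelihood test at a Benjamini-Hochberg adjusted p (FDR, over all miRNAs tested) of at most 0.05 and a change of at least 2-fold, where 3.37% of the 386 miRNAs tested were called. The log2 fold changes ranged from -0.29 for miR-125a-5p to 0.31 for miR-99b, and the lowest FDR was 0.778. None of the 8 had an unadjusted p under 0.05, and DESeq2 called none either. miR-10a and miR-10b had the narrowest fitted intervals, with -0.06 (95% interval -0.39 to 0.28) and -0.17 (-0.53 to 0.19). With 1 mare left out, their values went down to -0.51 and -0.66, past the lower end of these intervals. By CPM miR-10a was higher in the pregnant cycle in 1 mare and lower in 3, and miR-10b higher in 2 and lower in 2. The fitted intervals are therefore no bound on the change in a single mare. miR-125a-5p was lower in the pregnant cycle in 4 of 4 mares by CPM, and every other member was mixed over the mares. How many of all miRNAs went the same way in 4 of 4 mares was not counted. CPM also leaves out the TMM factors: miR-99b, fitted at 0.31, was lower by CPM in 3 of 4 mares. In UF 0 of 8 were called as well, where 4.92% of 305 miRNAs were called. The log2 fold changes ranged from -0.43 for miR-125b-5p to 0.30 for miR-99a. The lowest FDR was 0.889, again with no unadjusted p under 0.05 and no call with DESeq2. By CPM miR-125b-5p was lower in 4 of 4 mares and every other member was mixed, and here too the share of all miRNAs was not counted. The intervals were wider here, from -1.44 to 0.57 for miR-125b-5p and from -0.65 to 0.99 for miR-10b. An interaction term, which asks whether pregnancy acted differently in the fluid and the tissue, was called for 0 of 8 members (1.69% of 415 miRNAs), with a lowest FDR of 0.965 and no unadjusted p under 0.05.

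Between UF and uterus the families split. In the pregnant cycles 4 of 8 members were lower in UF and 0 of 8 higher, where 20.1% of the 359 miRNAs tested were called lower and 13.6% higher. miR-10b, near the HOXD genes, had a log2 fold change of -4.27 ± 0.51 (SE, FDR 4.14e-05), miR-100 of -3.77 ± 0.49 (FDR 8.41e-05), miR-99a of -2.48 ± 0.49 (FDR 0.00122) and miR-125b-5p of -1.80 ± 0.35 (FDR 0.00121). The others did not pass the test: miR-10a had -0.17 ± 0.38, miR-99b -0.19 ± 0.44, miR-125a-5p -0.35 ± 0.36 and miR-125a-3p 0.06 ± 0.49. The cyclic cycles, in which other libraries of mares 1 to 4 enter, gave the same 4 of 8 members as lower and 0 of 8 as higher, against 18.9% and 11.9% of 328 miRNAs. The log2 fold changes there were -5.40 ± 0.59 for miR-10b (FDR 1.08e-05), -3.97 ± 0.80 for miR-100 (FDR 0.00156), -3.14 ± 0.71 for miR-99a (FDR 0.00315) and -2.04 ± 0.47 for miR-125b-5p (FDR 0.00362). The remaining members had -0.63 ± 0.36 (miR-10a, FDR 0.208), -0.80 ± 0.45 (miR-125a-5p, FDR 0.203), -0.37 ± 0.55 (miR-99b) and -0.24 ± 0.58 (miR-125a-3p). The median over all miRNAs tested was -0.12 in the pregnant and -0.24 in the cyclic cycles, and moved by at most 0.22 under RLE factors, under library totals or when the members and let-7 were left out of the scaling. All 4 calls held under each of these in both cycles, and the sign of miR-125a-3p in the pregnant cycles turned to -0.08 with members and let-7 left out. Without cyclic uterus 2, miR-125b-5p in the cyclic cycles had -1.38 and did not pass.

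By cluster, the members and their let-7 neighbours read as follows. miR-99b and miR-125a-5p, neighbours of let-7e, were not called in UF against uterus, and let-7e itself had -0.30 ± 0.25 in the pregnant and -0.31 ± 0.35 in the cyclic cycles. miR-99a was lower in UF, as was miR-125b-5p, whose reads can come from this cluster or from that of miR-100. In contrast, let-7c, whose gene lies between those of miR-99a and a miR-125b copy, had -0.12 ± 0.24 and 0.29 ± 0.33. miR-100 was lower in UF, while its neighbour let-7a had -0.20 ± 0.21 and -0.22 ± 0.33. With the scaling, the sign turned for let-7c in the pregnant cycles (0.03 with library totals) and for let-7a in the cyclic cycles (0.08 with RLE factors). The other let-7 values given here kept their sign under the other scalings. In pregnant uterus let-7a had a mean of 189681 CPM and let-7c of 120423 CPM, against 215 CPM for miR-99a and 212 CPM for miR-100. Mature let-7a also comes from another locus, which had no family member beside it. The 7 let-7 family entries together (with miR-98) took 38.9% ± 6.8 of the reads in pregnant uterus and 38.9% ± 2.57 in pregnant UF (SD over 5 libraries each). In the pregnant cycles 1 of the 7 was called in UF against uterus, miR-98 as higher with 1.05 ± 0.27 (FDR 0.00649), and in the cyclic cycles 0 of 7.

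**Figure D3:**
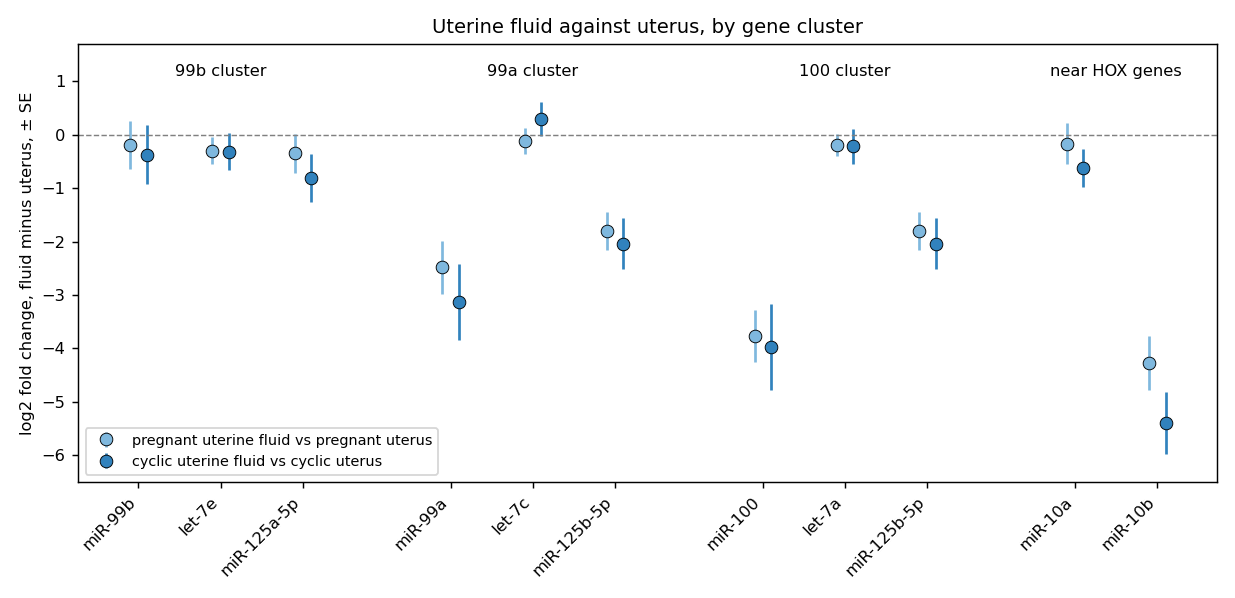
Log2 fold change of UF against uterus with its standard error for cluster neighbours and for miR-10a and miR-10b, in the pregnant and in the cyclic cycles. miR-125b-5p is drawn in both clusters that can give it. In either cycle miR-99a, miR-100, miR-125b-5p and miR-10b lie at -1.80 or below, and the let-7 neighbours between -0.31 and 0.29.

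The summed markers of smooth muscle and stroma and of endothelium were lower in UF than in uterus without overlap. Those of epithelium overlapped between UF and uterus in both cycles. Those of blood overlapped in the pregnant cycles only. In the cyclic cycles they lay between 6501 and 13506 CPM in uterus and between 1149 and 2859 CPM in UF. Those of leukocytes overlapped in the cyclic cycles only. In the pregnant cycles they lay between 2816 and 3474 CPM in uterus and between 1714 and 2791 CPM in UF. The 7 entries for miR-143, miR-145, miR-199a, miR-199b and miR-214, found in smooth muscle and stroma, had reads for 7 of 7 in all 4 groups. They summed to between 24274 and 38442 CPM in cyclic uterus and between 17516 and 56910 CPM in pregnant uterus. In UF the sums were between 789 and 3796 CPM in the cyclic and between 364 and 8071 CPM in the pregnant cycles. Of these entries, miR-199a-3p and miR-199b-3p had nearly the same counts (9080 and 9069 reads in cyclic uterus). They are not separate markers, and the sums hold both. The 2 miR-126 entries of endothelium summed to between 1598 and 4816 CPM in the uterine groups and between 7.42 and 316 CPM in the UF groups. The 4 blood entries (miR-451, miR-144, miR-486) summed to between 2674 and 13506 CPM in uterus and between 519 and 3246 CPM in UF, with miR-144 at 0 in cyclic UF. The 6 epithelial entries (miR-200, miR-141, miR-429 and miR-205) summed to between 49244 and 72098 CPM in uterus and between 50510 and 97730 CPM in UF. By mean CPM, miR-141 was lower in UF than in uterus in both cycles, and the other epithelial entries were higher. miR-205 had means of 139 CPM in cyclic uterus and 2171 CPM in cyclic UF, and of 71.2 and 1429 CPM in the pregnant cycles. The 5 leukocyte entries summed to between 1956 and 3474 CPM in uterus and between 1268 and 2791 CPM in UF. The part of these cell types in the differences of the members was not tested.

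The known miRNAs outside the families whose levels were most alike over the 28 libraries, by Pearson's r of log2(CPM + 10) among 182 candidates, were as follows. The nearest to miR-99a were miR-199b-5p (r = 0.94), miR-195 (0.90) and miR-199b-3p (0.89), those to miR-100 were miR-451 (0.88), miR-199b-3p (0.87) and miR-199a-3p (0.87), and those to miR-10b were miR-148a (0.85), miR-126-3p (0.82) and miR-126-5p (0.82). The nearest to miR-10a were miR-204b (0.98), miR-181a (0.93) and miR-24 (0.91), and those to miR-125b-5p were miR-486-5p (0.84), miR-155 (0.83) and miR-204b (0.81). miR-125a-5p was nearest to miR-328 (0.90), miR-155 (0.78) and miR-27a (0.77), miR-99b to miR-200c (0.74), miR-328 (0.67) and miR-28-3p (0.59), and miR-125a-3p to miR-361-3p (0.79), miR-200c (0.68) and miR-34a (0.58). Since miR-199a-3p and miR-199b-3p had nearly the same counts, they are not separate likenesses. These r describe the 28 libraries, which share mares, groups and read depth, and are no tests.

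In embryo against pregnant uterus all 8 members tested were lower, where 42.6% of 359 miRNAs were called lower and 28.7% higher. These comparisons depended on the scaling: with the TMM factors the median of all miRNAs tested was -1.02, and with library totals alone it was higher by 1.32, so the split of the calls turned from 103 higher and 153 lower to 140 higher and 94 lower (115 and 133 with RLE factors). Relative to the median of all miRNAs, the log2 fold changes with TMM were -4.86 for miR-10a, -1.39 for miR-10b, -5.29 for miR-99a, -4.34 for miR-100, -2.53 for miR-99b, -4.79 for miR-125a-5p, -1.87 for miR-125a-3p and -5.14 for miR-125b-5p. The same values with library totals were -4.79 for miR-10a, -1.36 for miR-10b and between -5.43 and -1.89 for the other members, and 7 of 8 members were then called, without miR-125a-3p. The unshifted TMM values were -5.89 ± 0.49 for miR-10a (FDR 1.13e-06) and -2.41 ± 0.44 for miR-10b (FDR 0.000477), both also called under RLE factors (-5.41 and -1.95). Members with 1 to 3 reads in the embryos are given better by their pooled counts: miR-99a stood at 1 read against 382, a level lower by 37.2-fold with a 95% exact counting interval of 6.64-fold to 1475-fold, miR-100 at 2 against 400 reads (19.5-fold, 5.36-fold to 162-fold) and miR-125a-3p at 3 against 100 reads (3.25-fold, 1.08-fold to 16.0-fold). The let-7 family took 1.153% ± 0.54 (SD over 5 libraries) of the embryo reads, and 7 of its 7 entries were called lower than in pregnant uterus, with log2 fold changes between -6.63 and -5.25.

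Against pregnant UF the embryo was lower in 6 of 8 members and higher in 1, where 38.7% of 310 miRNAs were called lower and 29.7% higher. The member higher in embryo was miR-10b, with 1.60 ± 0.55 (FDR 0.024), or 1.83 relative to the median of all miRNAs, while miR-10a was lower with -6.03 ± 0.52 (FDR 1.05e-06), or -5.80 relative to the median. With library totals these relative values were 1.82 and -5.64. Without pregnant UF 1 or without pregnant UF 3, the value of miR-10b was 1.38 and the FDR passed 0.05. miR-99b (-3.63 ± 0.70), miR-125a-5p (-5.66 ± 0.80), miR-125a-3p (-3.10 ± 0.65), miR-125b-5p (-4.55 ± 0.81) and miR-99a (-3.80 ± 0.86) were lower in embryo, and miR-100, at 2 against 9 reads, was not called (-1.78 ± 0.81, FDR 0.0675). miR-99a rests on 1 read against 23 (pooled level 7.25-fold lower, 95% exact counting interval 1.18-fold to 299-fold) and miR-125a-3p on 3 against 34 reads (3.57-fold, 1.12-fold to 18.2-fold). All 7 calls held with RLE factors and with library totals. Over all miRNAs the split moved from 92 higher and 120 lower to 146 and 85 with library totals and to 116 and 100 with RLE factors.

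In YS fluid against pregnant uterus 7 of 8 members were called lower, where 35.2% of 341 miRNAs were called lower and 17.9% higher. Here the scaling moved the values most: the median of all miRNAs was -0.84 with TMM, higher by 0.82 with RLE factors and higher by 1.99 with library totals, and the split went from 61 higher and 120 lower to 78 and 87, and to 119 and 59. miR-10a (-4.82 ± 0.70), miR-10b (-4.18 ± 0.56), miR-100 (-5.32 ± 0.92) and miR-125b-5p (-4.62 ± 0.57) were lower under all 3 scalings. Relative to the median they stood at -3.98, -3.35, -4.48 and -3.78 with TMM, and at -4.11, -3.40, -4.55 and -3.72 with library totals. miR-100 rests on 1 read against 400, a pooled level lower by 11.7-fold with a 95% exact counting interval of 2.09-fold to 465-fold. miR-99a, at 0 reads in YS fluid, was at least 3.73-fold lower over the pooled reads.

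The calls on miR-99b and miR-125a-5p in YS fluid came with the scaling. miR-99b had -1.85 ± 0.46 (FDR 0.00279) with TMM but -1.07 with RLE factors, not called, and 0.18 with library totals, not called. miR-125a-5p had -2.18 ± 0.42 (FDR 0.000365) with TMM, -1.36 with RLE factors, called, and -0.09 with library totals, not called. Their pooled levels, per library total, were 1.09 times (95% exact counting interval 0.650 to 1.71) and 0.946 times (0.700 to 1.25) those of pregnant uterus. Relative to the median of all miRNAs the changes were -1.01 and -1.34 with TMM and -0.98 and -1.24 with library totals. miR-125a-3p was not called, with -0.72 ± 0.70, and turned to 0.06 with RLE factors and 1.33 with library totals.

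**Figure D4:**
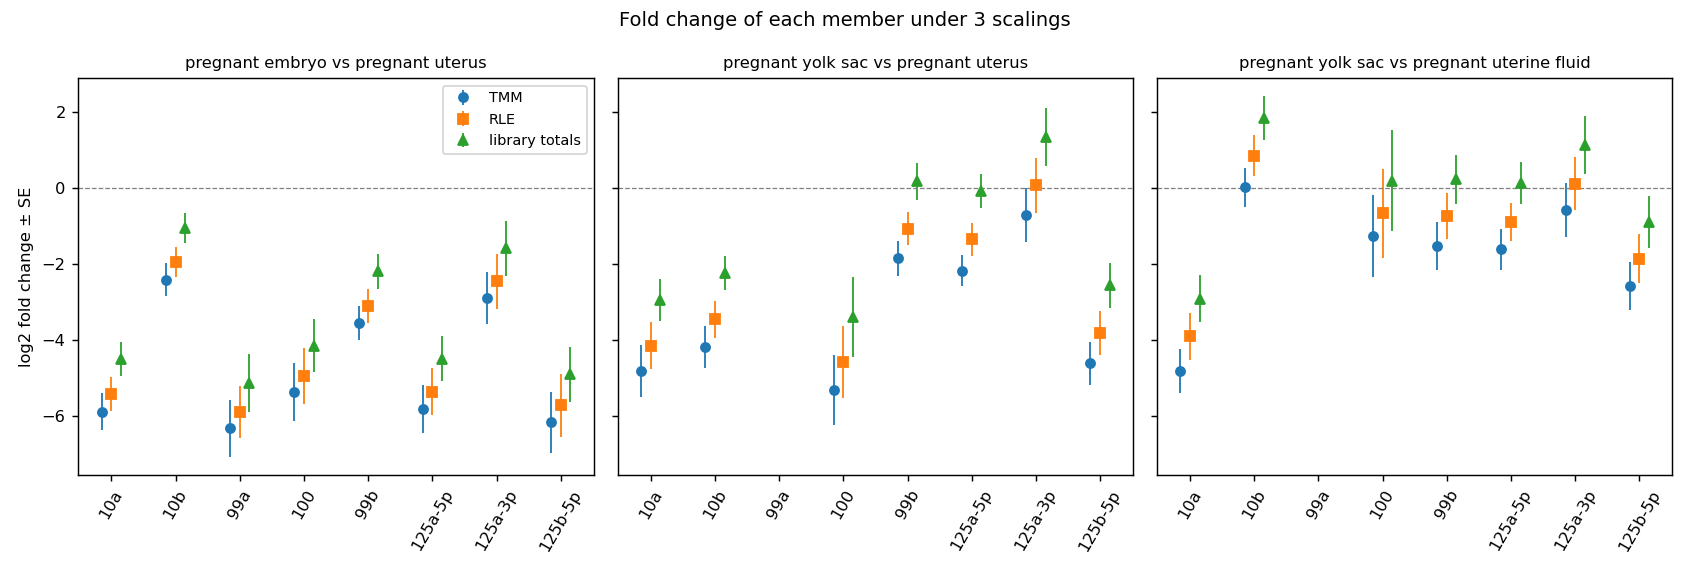
Log2 fold change with its standard error of each member in embryo against pregnant uterus, yolk sac fluid against pregnant uterus and yolk sac fluid against pregnant UF, with TMM factors (circles), RLE factors (squares) and library totals alone (triangles). miR-99a is not drawn for yolk sac fluid, where it had 0 reads. miR-99b moves from -1.85 to 0.18 and miR-125a-5p from -2.18 to -0.09 between TMM and library totals in the middle panel.

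Against pregnant UF the YS fluid, extracted with the same kit, was lower in 5 of 8 members and higher in 0 of 8 with TMM, where 35.7% of 277 miRNAs were called lower and 23.5% higher. miR-10a was lower with -4.82 ± 0.58 (FDR 3.93e-06) and stayed called with RLE factors (-3.91) and library totals (-2.91). miR-10b was at 0.01 ± 0.51 with TMM and 0.84 with RLE factors, both not called, and at 1.82 with library totals, called higher, or 0.55 and 0.70 relative to the median with TMM and library totals. The other calls changed with the scaling: miR-125b-5p had -2.57 ± 0.63 (FDR 0.00262) and -0.90 with library totals, not called, and miR-125a-5p had -1.62 ± 0.53 (FDR 0.0167) and 0.14, not called. miR-99b had -1.52 ± 0.63 (FDR 0.0465), -0.75 with RLE factors and 0.22 with library totals, the last 2 not called, and was not called either with the mare as replicate block (-1.39). miR-99a was called, but at 0 reads against 23 no lower bound above 1-fold can be given, and miR-100, at 1 against 9 reads, was not called. With library totals 2 of 8 members were called, miR-10a as lower and miR-10b as higher, and the split over all miRNAs went from 65 higher and 99 lower to 114 and 53 (87 and 78 with RLE factors). Without pregnant UF 1 or YS 3, 3 members were called, without miR-125a-5p (-1.11 and -1.35) and miR-99b (-1.02 and -1.64). miR-99b also lost its call without pregnant UF 2, 3 or 5 and without any 1 of the other YS libraries, with values between -1.59 and -1.31.

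Between embryo and the YS fluid aspirated from it, 6 of the 8 members were tested. miR-99a (1 read in embryo, 0 in YS fluid) and miR-100 (2 and 1) did not reach 1 CPM in enough libraries to pass the filter. miR-10b was the 1 member called higher in embryo, with 1.86 ± 0.50 (FDR 0.0164), where 22.0% of 259 miRNAs were called higher. It had 1.61 with RLE factors, called, and 1.16 with library totals, not called. 2 members were called lower in embryo, where 13.1% were called: miR-125a-5p with -3.58 ± 0.75 (FDR 0.00428; 8 reads against 50), also called under both other scalings, and miR-99b with -1.74 ± 0.53 (FDR 0.03; 13 reads against 19), which was not called with the mare as replicate block (-1.68). The remaining members had -0.89 ± 0.61 (miR-10a), -2.05 ± 0.86 (miR-125a-3p) and -1.56 ± 0.88 (miR-125b-5p). The median of all miRNAs was 0.28 with TMM and -0.32 with library totals, and the split went from 57 higher and 34 lower to 40 and 55. Relative to the median, miR-10b stood at 1.58 with TMM and 1.48 with library totals. Without the shallow YS library of mare 4 the same number of members, 3, was called, with miR-10b at 2.22. miR-10b was not called without YS 1 (1.59) or YS 5 (1.65), miR-99b without embryo 1 (-1.70), embryo 4 (-1.64) or YS 3 (-1.37), and miR-125a-3p was called without YS 2 (-2.40). With 28 libraries in 1 fit miR-10b was not called (1.46), while miR-10a (-1.415) and miR-125a-3p (-2.59) were called as lower in embryo, and library totals also called miR-125a-3p (-2.62). The log2 ratio of miR-125a-5p to miR-99b, neighbours in 1 cluster, was lower in embryo than in pregnant uterus and than in pregnant UF, by 2.25 in both cases and without overlap (exact permutation p = 0.00794, adjusted p = 0.039). With 0 to 3 reads of miR-125a-5p and 1 to 6 of miR-99b in an embryo, the sizes depend on the reads added, and with 5 reads added the differences were -1.76 and -1.58, again without overlap.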

How the data were processed

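Reads of 28 small RNA libraries were trimmed by the authors with cutadapt 1.11, reads shorter than 17 bases, under quality 20 or with ambiguous bases were removed, and reads were counted with miRPro on known horse miRNAs of miRBase and on miRNAs predicted on EquCab2.0. The authors deposited raw counts per miRNA without normalization. A table of predicted precursors, 28 columns of values, was not used, since its title line says that it holds the counts of the predicted mature miRNAs.

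Known and predicted miRNAs were fitted together, per comparison, with edgeR 4.0.16 (R 4.3.3). A miRNA was kept if it reached 1 CPM in as many libraries as the smaller group holds. TMM factors and the quasi-likelihood test were used, and a call needed an FDR no higher than 0.05 together with a 2-fold change, as in the study. The replicate number was taken as the mare, which was a block for pregnant against cyclic cycles. Mare 5 then entered the scaling but not the contrast. Samples of 1 mare are paired by the study's switch-back design: their deviations from group means correlated with r between -0.14 and 0.29 in uterus and between 0.019 and 0.38 in UF. No block was used between compartments. Ratios within a library (0.5 reads added) were compared with two-sided exact permutation tests, or sign-flip tests for cycles, adjusted over 54 tests with 6 ratios in 9 comparisons. Named are all members, the cluster partners let-7a, let-7c and let-7e, let-7 family entries by counts and called ones by name, the 3 most alike miRNAs of each member and the marker lists. Members and lists were chosen with earlier results of these data known. Wilson and exact intervals use a level of 95% and, like the floor of 3 reads, cover counting error only. The SE of a log2 fold change was derived from the fold change and the statistic of the quasi-likelihood test. The 95% intervals of fold changes were built from that SE with a normal spread. Alternatives were other scalings (RLE factors, TMM computed without members and let-7), no filter, filterByExpr, the likelihood ratio test, DESeq2 1.42.0, known miRNAs only, identical predicted miRNAs counted once, 28 libraries in 1 fit, the FDR alone, the block added or left out, libraries or mares left out, and 5 reads added in ratios. Library totals without TMM were added after seeing the data. The fits were tested on simulated data. Python 3.11.15 with scipy 1.17.1 was used. Sequences were not used here, and positions were used only to see which loci neighbour each other.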

Additional observations from a re-analysis of the deposited data

Results flagged for a closer look

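In 7 of 47 tests of a member in a group of 4 or 5 libraries, 1 library lay far from the others by Dixon's criterion. For normally spread values chance meets it in about 1 of 20. That rate does not hold for members with 0 to 2 reads in a library, so the number of flags is not set against it. Pregnant UF 1 was high for miR-10a (84403 CPM, 11372 reads) and miR-125a-5p (1781 CPM, 240 reads), with a gap of 0.756 and 0.714 of the group's range. The YS library of mare 4, with 4352 reads, was high for miR-10a (15855 CPM, 69 reads), miR-10b (13787 CPM, 60 reads), miR-125b-5p (459.6 CPM, 2 reads) and miR-100 (229.8 CPM, 1 read). The embryo of mare 5 held the single miR-99a read among embryos (24.2 CPM). Without pregnant UF 1 the log2 fold change of UF against pregnant uterus was -0.65 for miR-10a and -0.84 for miR-125a-5p, in place of -0.17 and -0.35. Without the YS library of mare 4, YS fluid against pregnant uterus was -5.93 for miR-10a, -4.90 for miR-10b and -5.17 for miR-125b-5p, in place of -4.82, -4.18 and -4.62. miR-100 then had 0 reads in YS fluid, and its fitted value of -8.64 in place of -5.32, or of -3.55 in place of -1.26 against pregnant UF, depends on the prior count and is no bound.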

How the results depend on the processing

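Of 1540 values recomputed under alternatives for 84 results, 1397 kept their direction and their side of the threshold, 41 lost a call, 5 gained one and 97 changed sign. Depth limits the embryo and above all the YS values, where several members rest on fewer than 10 reads. Where none is given, the cause of the changes below was not tested. The number of members called stayed at 0 for pregnancy in uterus, UF and the interaction and at 4 for UF against uterus in the pregnant cycles, and was 3 to 4 in the cyclic cycles, 7 to 8 for embryo against uterus and 5 to 7 for YS fluid against uterus. The filterByExpr filter removed members: 3 were still tested for embryo against UF, and all 3 were called (7 in the report), 2 for embryo against YS fluid, with 1 called (3 in the report), and 4 for YS fluid against UF, with 1 called. This filter also changes the set of all miRNAs tested. The share of them called after it, and under most other alternatives, is not given here. The counts are therefore no result about the members. For YS fluid against UF the number of members called went from 5 to 3 with RLE factors, 2 with library totals, 2 with DESeq2 and 3 with known miRNAs only, and to 3 to 5 with 1 library left out. Of the 11 ratio differences past an adjusted p of 0.05, some of which rest on members with 0 to 3 reads, 8 were among the 11 that passed with 5 reads added. Of them, 0 remained in the paired sign-flip test with the replicate block or with a mare left out, designs too small to pass the adjusted threshold.

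With the mare as replicate block, miR-99b lost its call in YS fluid against UF and against embryo, and no other member's call changed; leaving the block out made no call for pregnancy. Without the replicate block the sign turned in pregnant against cyclic UF for miR-10a (0.139), miR-99b (0.1903) and miR-125a-3p (-0.0719), and in the interaction for miR-10a (0.135) and miR-125a-3p (0.06178).

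Signs of log2 fold changes that were not called turned as follows. Pregnant against cyclic uterus: miR-125a-3p with filterByExpr (0.003256) or identical predicted miRNAs counted once (0.01458), and miR-99a with library totals (-0.1446), where the median of all miRNAs moved by -0.23. Pregnant against cyclic UF: miR-10a (0.05309), miR-99b (0.07799) and miR-125a-3p (-0.1019) with 28 libraries in 1 fit, and miR-125a-3p with scaling without members and let-7 (-0.1019), library totals (-0.09726) or identical predicted miRNAs counted once (-0.004088). UF against uterus, pregnant: miR-125a-3p with scaling without members and let-7 (-0.07748) or no filter (-0.09349), miR-99b with known miRNAs only (0.01107), and let-7c with library totals (0.03056) or known miRNAs only (0.05225). UF against uterus, cyclic: miR-125a-3p (0.1054), let-7a (0.1366) and let-7e (0.02405) with filterByExpr, and let-7a with RLE factors (0.08493) or DESeq2 (0.08496). YS fluid against uterus: miR-125a-3p with RLE factors (0.06365), library totals (1.326), DESeq2 (0.06649) or known miRNAs only (0.00821). YS fluid against UF: miR-125a-3p with RLE factors (0.1097), library totals (1.121) or DESeq2 (0.1136), and miR-100 with library totals (0.1906). Interaction: miR-10a (0.1181) and miR-125a-3p (0.1612) with RLE factors and miR-125a-3p with filterByExpr (0.0131). Called values that turned were miR-99b in YS fluid with library totals, against uterus (0.1754) and UF (0.2208), and miR-125a-5p against UF (0.1355).

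With 1 mare or library left out, the values whose sign turned ranged as follows. Pregnant against cyclic uterus: miR-10a -0.5136 to 0.2471, miR-10b -0.6579 to 0.2815, miR-125a-3p -0.316 to 0.2063, miR-125b-5p -0.5929 to 0.02981, miR-99a -0.1257 to 0.06991 and miR-99b -0.01055 to 0.3906. Pregnant against cyclic UF: miR-100 -1.095 to 0.2042, miR-10a -0.4486 to 0.1932, miR-10b -0.4605 to 0.4543, miR-125a-3p -0.1265 to 0.1213, miR-125a-5p -0.3182 to 0.158, miR-99a -0.112 to 0.5074 and miR-99b -0.4872 to 0.1162. UF against uterus, pregnant: miR-10a -0.6524 to 0.02738, miR-125a-3p -0.2748 to 0.2436 and miR-99b -0.661 to 0.06161. UF against uterus, cyclic: miR-10a -0.6755 to 0.02991, miR-125a-3p -0.5561 to 0.2888, miR-99b -0.5055 to 0.2623, let-7a -0.2651 to 0.3447 and let-7e -0.2663 to 0.1673. YS fluid against UF: miR-10b -0.2962 to 0.4745. Interaction: miR-100 -0.7915 to 0.7217, miR-10a -0.1978 to 0.3908, miR-10b -0.5304 to 1.124, miR-125a-3p -0.04553 to 0.2721, miR-125a-5p -0.08155 to 0.5895, miR-125b-5p -0.6389 to 0.3001 and miR-99a -0.1501 to 0.6917.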
